A study of Mus musculus with 6 samples.

Results

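The 34 genes described here are the mouse genes of homologous recombination, the Fanconi anaemia pathway and the checkpoint kinases ATM, ATR, CHK1 and CHK2. They were taken by name from 17254 genes listed in the files, with earlier results of these data known. All 34 were among the 12813 genes that passed the filter on low counts. RNA was sequenced from cultures of mouse neural stem and progenitor cells in 6 libraries: 2 of cells kept with PQ, 2 of cells kept with NAC and 2 of control cells, each at 48 h. All 3 groups shared the same N2 medium with EGF and bFGF. The labels spell out neither PQ nor NAC, and they give no dose, strain, age or vehicle. The title of the series speaks of redox potential. No label says whether 2 libraries of 1 group were grown as separate cultures. The p-values therefore reflect only how far these libraries differ, which can be technical spread.

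Homologous recombination repairs a double-strand DNA break by copying the intact sister chromatid, and it therefore works in cells that have replicated their DNA. Broken ends are resected to single strands, the BRCA proteins and the BCDX2 and CX3 complexes prepare these strands, and strand exchange then pairs them with the matching sequence. The Fanconi pathway deals with strands that are cross-linked to each other: a core complex adds ubiquitin to FANCD2 and FANCI, and nucleases and recombination proteins complete the repair. ATM and ATR sense breaks and stalled replication forks and signal through CHK2 and CHK1. In neural progenitors, which divide fast, loss of several of these genes is known to cause small brains.

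Summed expected counts were 9680436 to 10698241 per library. The members were covered by 33 (Fancf, in PQ replicate 1) to 1413 reads (Atm, in NAC replicate 1), and members with few reads, such as Fancf and Rad51b, had the least precise values. Of 12 neural stem cell markers, all were listed, and their summed FPKM (fragments scaled to transcript length and library size) was 4077 to 4090 with PQ, 2986 to 3054 with NAC and 3746 to 3823 in control. Hes5 and Prom1 were near 0 in every library, at 0.16 FPKM or less. Neuron markers summed to 33.7 to 34.9 FPKM with PQ, 58.6 to 65.3 with NAC and 35.9 to 38.2 in control, nearly all from Map2, while Rbfox3 was at 0. Astrocyte markers summed to 160 to 171, 106 to 107 and 129 to 133 FPKM in the PQ, NAC and control libraries, mostly from Gja1. Gfap was higher with NAC, at 4.07 and 5.14 FPKM, than in control, at 2.17 and 1.64. Aqp4 was too, at 2.66 and 2.56 beside 0.7 and 0.79. At an edgeR adjusted p under 0.05, 2 of the 5 astrocyte markers rose and 1 fell in NAC against control, beside 8.65% and 9.26% of all tested genes. Oligodendrocyte markers stayed at 16.3 FPKM or below, with Mog at 0, microglial ones at 4.59 or below, fibroblast ones at 2.94 or below and endothelial ones at 0.54 or below, with Cldn5 at 0. Whether the cell makeup has a part in the results was not tested, and in bulk RNA fewer cells of a type and less RNA per cell cannot be told apart.

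The members called in PQ against control were all lower with PQ. In PQ against control, 18 of the 34 members fell and 0 rose, where 8.80% of all tested genes fell, 9.07% rose and 17.9% passed in either direction (edgeR quasi-likelihood test, Benjamini-Hochberg adjusted p under 0.05 over 12813 genes). The median log2 fold change of the members was -0.47, from -1.08 for Brca2 to 0.18 for Rad51d, and that of all tested genes was -0.00. At an unadjusted p under 0.05, 22 members were lower and 0 higher, and DESeq2 called 15 lower and 0 higher. The count of 18 rested in part on single libraries: 10 members were called without PQ replicate 2 and 13 without PQ replicate 1, when 829 and 1477 of all genes were called. Lower in each of the 16 alternative fits were 10 members: Brca2, Bard1, Rad51c, Rad51ap1, Rad54b, Rbbp8, Fanca, Fancd2, Fanci and Chek1.

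With NAC the same genes sat close to control, and 3 were higher. In NAC against control, Exo1, Nbn and Atm rose and 0 members fell, where 8.65% of all tested genes rose, 9.26% fell and 17.9% passed in either direction. The 3 that rose are 8.82% of the members, so this count is near the background. At an unadjusted p under 0.05, 5 members were higher and 1 was lower, and DESeq2 called 2 higher and 0 lower. The median over the 34 members was 0.06, from -0.37 for Ube2t to 0.47 for Exo1. Without NAC replicate 1 the count was 0, without control replicate 2 it was 1, and without control replicate 1 it was 6, of which 5 were higher and 1, Rbbp8, lower. With scaling by library size alone, 1392 of all genes rose and 986 fell, against 1108 and 1186 with the scaling used here.

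In PQ against NAC, 24 members fell and 0 rose, where 15.1% of all tested genes fell, 15.5% rose and 30.6% passed in either direction. At an unadjusted p under 0.05, 1 member (Rad51d) was higher, 29 were lower, and DESeq2 called 20 lower and 0 higher. The median was -0.56, from -0.92 for Fancd2 to 0.30 for Rad51d, beside 0.00 for all genes. The 3 comparisons share libraries, so their counts are not independent. Set side by side, 16 members fell with PQ against both other groups and did not pass in NAC against control. Another 5, Palb2, Xrcc2, Rad50, Fancc and Fancm, passed in PQ against NAC and not in the other comparisons. Rad51b and Fancl passed in PQ against control and just missed the threshold in PQ against NAC (log2 fold changes -0.67 and -0.48, edgeR adjusted p = 0.056 and 0.052). Passing in 1 comparison and not in another does not show a difference between them. Exo1, Nbn and Atm rose with NAC and were lower in PQ than in NAC, and 8 members passed in no comparison.

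**Figure D1:**
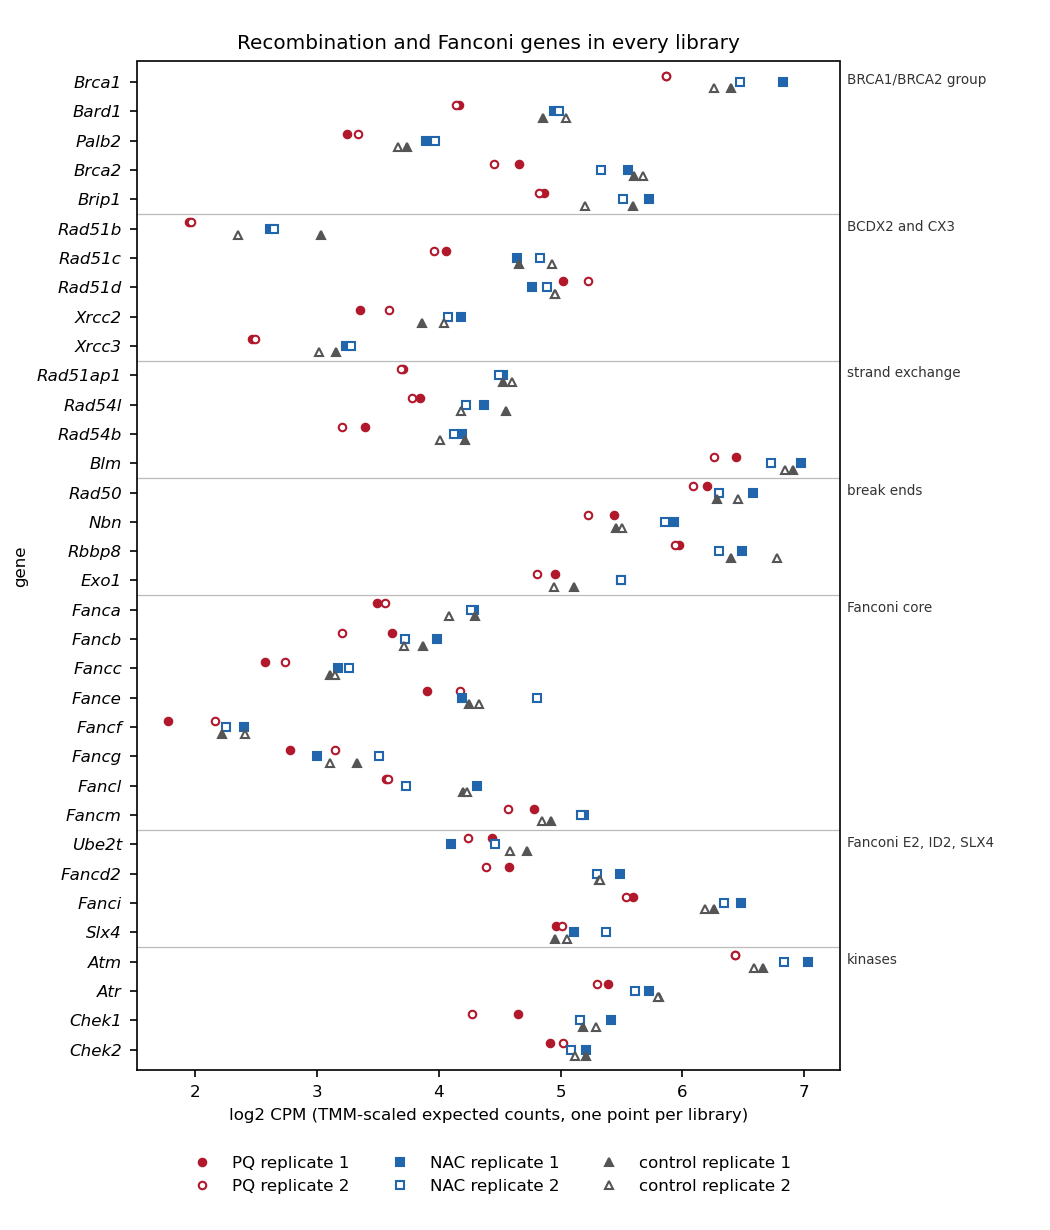
Level of each of the 34 members in each library, as log2 CPM, counts scaled to library size, ordered by role, with PQ as red circles, NAC as blue squares and control as grey triangles, filled for replicate 1 and open for replicate 2. The red circles lie left of the grey triangles for 30 of the 34 members, while Slx4, Exo1 and Fancg show mixed symbols and Rad51d has its PQ libraries, at 32.5 and 37.5 CPM, to the right. Among all tested genes, both PQ libraries lie below both control libraries for 28.2% and above them for 29.0%.

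The group around BRCA1 and BRCA2 was lower with PQ in 4 of its 5 members, Palb2 being the exception, and its median log2 fold change was -0.57. Brca2, whose protein acts on resected single-stranded DNA, had 25.3 and 21.9 CPM in the PQ libraries, 47.1 and 40.3 in the NAC libraries and 48.5 and 51.1 in the control libraries. Both PQ libraries lay far below the other 4, and the NAC libraries lay just under control. Brca2 fell 2.12-fold in PQ against control, a log2 fold change of -1.08 ± 0.13 (SE, n = 2 each; edgeR adjusted p = 1.3e-05), and 1.86-fold in PQ against NAC (adjusted p = 3.1e-05). In NAC against control its log2 fold change was -0.19 ± 0.12 (edgeR adjusted p = 0.30). The gene lies on chromosome 5 at 150522297 to 150570147 (GRCm38).

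Bard1 encodes the partner that makes BRCA1 an active ubiquitin ligase, and lies on chromosome 1 at 71027535 to 71103141. It had 17.9 and 17.7 CPM with PQ, 30.8 and 31.7 with NAC and 28.9 and 33.0 in control. The PQ libraries were nearly equal and well below a range that NAC and control shared. Bard1 fell by 0.80 ± 0.13 on the log2 scale in PQ against control (edgeR adjusted p = 0.00046) and by 0.81 ± 0.13 in PQ against NAC. Brca1 itself had 58.5 and 58.3 CPM with PQ, 113.8 and 88.9 with NAC and 84.6 and 76.8 in control, so its 3 groups did not overlap and stood in the order PQ, control, NAC. It was 1.38-fold lower in PQ than in control (edgeR adjusted p = 0.0097), a call lost without PQ replicate 1 (adjusted p = 0.060) or PQ replicate 2 (0.089). The rise of Brca1 with NAC, 0.33 ± 0.11 on the log2 scale, missed the threshold at an adjusted p of 0.052, and was past it without NAC replicate 2 (0.011) or control replicate 1 (0.033). Brip1, the helicase that binds BRCA1, fell by 0.57 ± 0.14 in PQ against control and by 0.78 ± 0.13 in PQ against NAC. Its first call was lost without PQ replicate 2 (edgeR adjusted p = 0.080) or control replicate 1 (0.092). Palb2, the bridge between BRCA1 and BRCA2, had 9.47 and 10.1 CPM with PQ and 13.3 and 12.7 in control. Its log2 fold change of -0.41 ± 0.16 did not pass in PQ against control (edgeR adjusted p = 0.092), while it fell by 0.64 ± 0.16 in PQ against NAC (adjusted p = 0.0051).

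The promoters of these genes are shown because many genes used in DNA replication carry binding words for E2F factors near their start. RefSeq promoter windows (GRCm38.p6), from 250 bases before to 50 after a start site, were at hand for 26 members and gave 29 windows. The 250 bases before the start are printed 5' to 3' on the strand of the gene: for Brca2 chr5:150522371-150522620 on the plus strand, and on the minus strand for Rad51ap1 chr6:126939588-126939837, for Bard1 chr1:71102973-71103222, for Chek1 chr9:36726659-36726908, for Rad51c chr11:87404955-87405204, for Brca1 chr11:101551956-101552205 and for Fancg chr4:43010302-43010551. All printed bases of Brca2 and Fancg, and some of Bard1 and Rad51ap1, lie inside the annotated gene, because the start in the table is not its outermost one. Capitals mark E2F-type and cell cycle homology words (given below) and, in Brca1 alone, CCAAT. Brca2, Rad51ap1, Bard1, Chek1 and Rad51c are the 5 members with the smallest p in PQ against control whose windows hold such a word anywhere, while Brca1 and Fancg were chosen after their values were seen, Fancg as a member that did not pass in PQ against control.
Brca2: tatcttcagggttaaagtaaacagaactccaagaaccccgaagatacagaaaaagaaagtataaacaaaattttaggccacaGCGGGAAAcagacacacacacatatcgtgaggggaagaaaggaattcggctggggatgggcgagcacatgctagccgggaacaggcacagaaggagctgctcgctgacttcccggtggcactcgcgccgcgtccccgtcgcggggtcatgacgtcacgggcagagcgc
Rad51ap1: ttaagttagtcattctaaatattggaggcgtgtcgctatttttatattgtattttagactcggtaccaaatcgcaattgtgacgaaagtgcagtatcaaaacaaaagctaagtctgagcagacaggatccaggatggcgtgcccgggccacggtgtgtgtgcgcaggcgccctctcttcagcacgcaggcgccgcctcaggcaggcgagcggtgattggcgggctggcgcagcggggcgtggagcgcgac
Bard1: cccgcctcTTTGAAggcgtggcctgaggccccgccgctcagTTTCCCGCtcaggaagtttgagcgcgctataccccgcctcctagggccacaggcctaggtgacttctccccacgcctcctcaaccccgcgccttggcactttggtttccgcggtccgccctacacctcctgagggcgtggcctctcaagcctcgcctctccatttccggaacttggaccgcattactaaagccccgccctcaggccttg
Chek1: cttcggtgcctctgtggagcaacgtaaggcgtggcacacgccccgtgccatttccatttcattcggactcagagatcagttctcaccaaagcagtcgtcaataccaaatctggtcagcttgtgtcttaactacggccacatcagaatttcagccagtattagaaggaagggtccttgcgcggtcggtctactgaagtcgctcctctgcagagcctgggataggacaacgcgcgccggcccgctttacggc
Rad51c: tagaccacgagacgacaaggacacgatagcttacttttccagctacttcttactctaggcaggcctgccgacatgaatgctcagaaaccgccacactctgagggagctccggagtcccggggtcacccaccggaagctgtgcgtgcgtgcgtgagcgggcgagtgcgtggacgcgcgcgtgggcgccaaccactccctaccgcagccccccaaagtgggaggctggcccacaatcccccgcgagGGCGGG
Brca1: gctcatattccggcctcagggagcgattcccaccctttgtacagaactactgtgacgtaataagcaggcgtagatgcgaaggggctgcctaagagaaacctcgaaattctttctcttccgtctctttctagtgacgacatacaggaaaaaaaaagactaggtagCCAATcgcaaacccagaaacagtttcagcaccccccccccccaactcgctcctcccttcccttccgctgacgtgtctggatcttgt
Fancg: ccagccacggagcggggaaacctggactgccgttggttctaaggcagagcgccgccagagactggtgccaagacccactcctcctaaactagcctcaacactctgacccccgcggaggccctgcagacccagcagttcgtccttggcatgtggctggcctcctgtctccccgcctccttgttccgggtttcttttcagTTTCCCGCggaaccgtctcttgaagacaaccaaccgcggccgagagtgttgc
The word GCGGGAAA in Brca2, at 168 to 161 bases before the start, is TTTCCCGC read on the other strand. In Rad51ap1 and Chek1 the word found, GGCGGGAA, begins after the start, at base 12 and base 43, so their printed bases hold none. In Rad51c the same word spans the start, from base -6 to base 2. TTTCCCGC, read on the other strand, overlaps it from base -5 to base 3. A second window of that gene, not printed, holds TTTCGCGC from base 12 after its start. Bard1 holds TTTGAA at 242 to 237 and TTTCCCGC at 209 to 202 bases before its start, Fancg holds TTTCCCGC at 52 to 45 bases before its start, and Brca1 holds CCAAT at 86 to 82 bases before its start.

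Words of 4 kinds were searched on both strands of all windows. The E2F type was any of TTTGGCGC or TTTCGCGC or TTTCCCGC or TTTGCCGC, and it stood in 6 of the 29 members' windows (20.7%), against 2.26% of all 32851 windows and 3.94% of those of tested genes. The word GGCGGGAA, which read on the other strand overlaps TTTCCCGC in all but a letter, stood in 5 of 29 (17.2%), against 2.19% and 3.97%. The cell cycle homology word TTTGAA or TTCGAA, the second of which reads the same on both strands, stood in 3 of 29 (10.3%), against 19.2% and 13.8%. CCAAT, the word of the factor NF-Y, stood in 20 of 29 (69.0%), against 37.4% and 38.1%. Among windows of members that fell with PQ, 4 of 18 (22.2%) held an E2F-type word, and among those of members that did not pass, 2 of 11 (18.2%). For CCAAT these counts were 10 of 18 (55.6%) and 10 of 11 (90.9%). Windows and not genes were counted, and the 18 windows came from 15 genes. Rad51c for the E2F type, and Rad51b and Rad54l for CCAAT, each counted more than once. A match describes letters in a window and not a bound site.

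Of the genes of the BCDX2 and CX3 complexes, which help strand exchange to start, 3 of 5 fell with PQ. Rad51c, part of both complexes, had 16.7 and 15.6 CPM with PQ, 25.0 and 28.5 with NAC and 25.3 and 30.4 in control. Both PQ libraries were below the 4 others, which overlapped. It was 1.73-fold lower in PQ than in control (log2 fold change -0.79 ± 0.15, edgeR adjusted p = 0.0011) and 1.66-fold lower than in NAC (adjusted p = 0.00090). Rad51b had 3.85 and 3.90 CPM with PQ, 6.12 and 6.24 with NAC and 8.19 and 5.09 in control, and its 2 control libraries lay far apart. Its fall of 0.78 ± 0.26 (edgeR adjusted p = 0.043) was -0.39 (adjusted p = 0.42) without control replicate 1, and the call was also lost without either PQ or either NAC library. Xrcc3, the second subunit of the smaller complex, fell by 0.61 ± 0.20 (adjusted p = 0.039), a call lost whichever PQ or control library was left out (adjusted p = 0.067 to 0.17). Xrcc2 had a log2 fold change of -0.48 ± 0.16 just outside the threshold (edgeR adjusted p = 0.051) and fell by 0.65 ± 0.16 in PQ against NAC (0.0047; 0.067 without PQ replicate 1). Rad51d, which pairs with XRCC2, was the one member with both PQ libraries above the rest. It had 32.5 and 37.5 CPM with PQ, 27.3 and 29.6 with NAC and 31.0 and 31.0 in control, and passed neither against control (log2 fold change 0.18 ± 0.12, edgeR adjusted p = 0.37) nor against NAC (0.30 ± 0.12, 0.076).

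All 4 genes of strand exchange and its undoing fell with PQ against both other groups, with a median of -0.69 against control. Rad51ap1, whose protein helps a single strand invade the matching duplex, had 13.0 and 12.9 CPM with PQ, 23.0 and 22.6 with NAC and 23.0 and 24.3 in control. Replicates lay close together, PQ stood apart, and NAC lay just under control. It was 1.83-fold lower in PQ than in control (log2 fold change -0.87 ± 0.14, edgeR adjusted p = 0.00041) and 1.76-fold lower than in NAC (adjusted p = 0.00028). The motor proteins RAD54L and RAD54B move along DNA and remodel the joints formed in strand exchange. Rad54b had 10.5 and 9.22 CPM with PQ, 18.3 and 17.4 with NAC and 18.6 and 16.1 in control, a 1.76-fold fall against control (edgeR adjusted p = 0.0018). It shares 35.8% of its exonic bases with Fsbp on the same strand, so its reads can be split between them, and Fsbp had a log2 fold change of -0.59 ± 0.25 in PQ against control (adjusted p = 0.12) and fell by 0.74 ± 0.25 in PQ against NAC (0.028). Rad54l fell by 0.57 ± 0.16 (edgeR adjusted p = 0.019), a call lost without PQ replicate 1 (0.069), PQ replicate 2 (0.15) or control replicate 1 (0.17). Its fall of 0.49 ± 0.16 in PQ against NAC (0.027) was lost without either PQ library or NAC replicate 1 (0.083 to 0.16). Blm, the helicase lost in Bloom syndrome, was among the highest members per length, at a mean of 17.7 FPKM with PQ, 25.4 with NAC and 24.9 in control. It fell by 0.52 ± 0.11 (edgeR adjusted p = 0.0023), and did not pass without PQ replicate 2 (0.073).

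Of the 4 genes that sense and resect broken ends, 1 fell with PQ against control, 2 rose with NAC against control and all 4 fell in PQ against NAC. Rbbp8, which encodes the CtIP protein that starts resection, had 63.0 and 61.3 CPM with PQ, 89.7 and 78.7 with NAC and 84.3 and 109.9 in control. Both PQ libraries were the lowest, and control replicate 2 stood above all others. It was 1.56-fold lower in PQ than in control (log2 fold change -0.64 ± 0.12, edgeR adjusted p = 0.0011). It was 1.36-fold lower than in NAC (0.0096), which did not pass without PQ replicate 2 (0.077) or NAC replicate 1 (0.11). Exo1, the nuclease that extends resection, had 31.0 and 28.0 CPM with PQ, 45.1 and 45.2 with NAC and 34.6 and 30.8 in control. NAC stood above all other libraries, while PQ and control overlapped. Exo1 rose 1.38-fold in NAC against control (log2 fold change 0.47 ± 0.12, edgeR adjusted p = 0.0090), was 1.53-fold lower in PQ than in NAC (0.00064), and had a log2 fold change of -0.15 ± 0.12 in PQ against control (0.45). Its rise was past the threshold in neither the fit without NAC replicate 1 (0.057) nor that without control replicate 2 (0.060), and was at 0.050 without NAC replicate 2.

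Nbn, whose protein ties the MRE11 and RAD50 nuclease to ATM, had 43.3 and 37.4 CPM with PQ, 60.9 and 58.0 with NAC and 43.9 and 45.4 in control. The NAC libraries were again the highest, and the PQ libraries lay below control. It rose 1.33-fold with NAC (log2 fold change 0.41 ± 0.11, edgeR adjusted p = 0.013; 0.10 without NAC replicate 1) and was 1.48-fold lower in PQ than in NAC (0.00075). Rad50, the arm of that complex, fell by 0.30 ± 0.11 in PQ against NAC (edgeR adjusted p = 0.046), a call lost without NAC replicate 1 (0.44) or either PQ library (0.090 and 0.26).

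**Figure D2:**
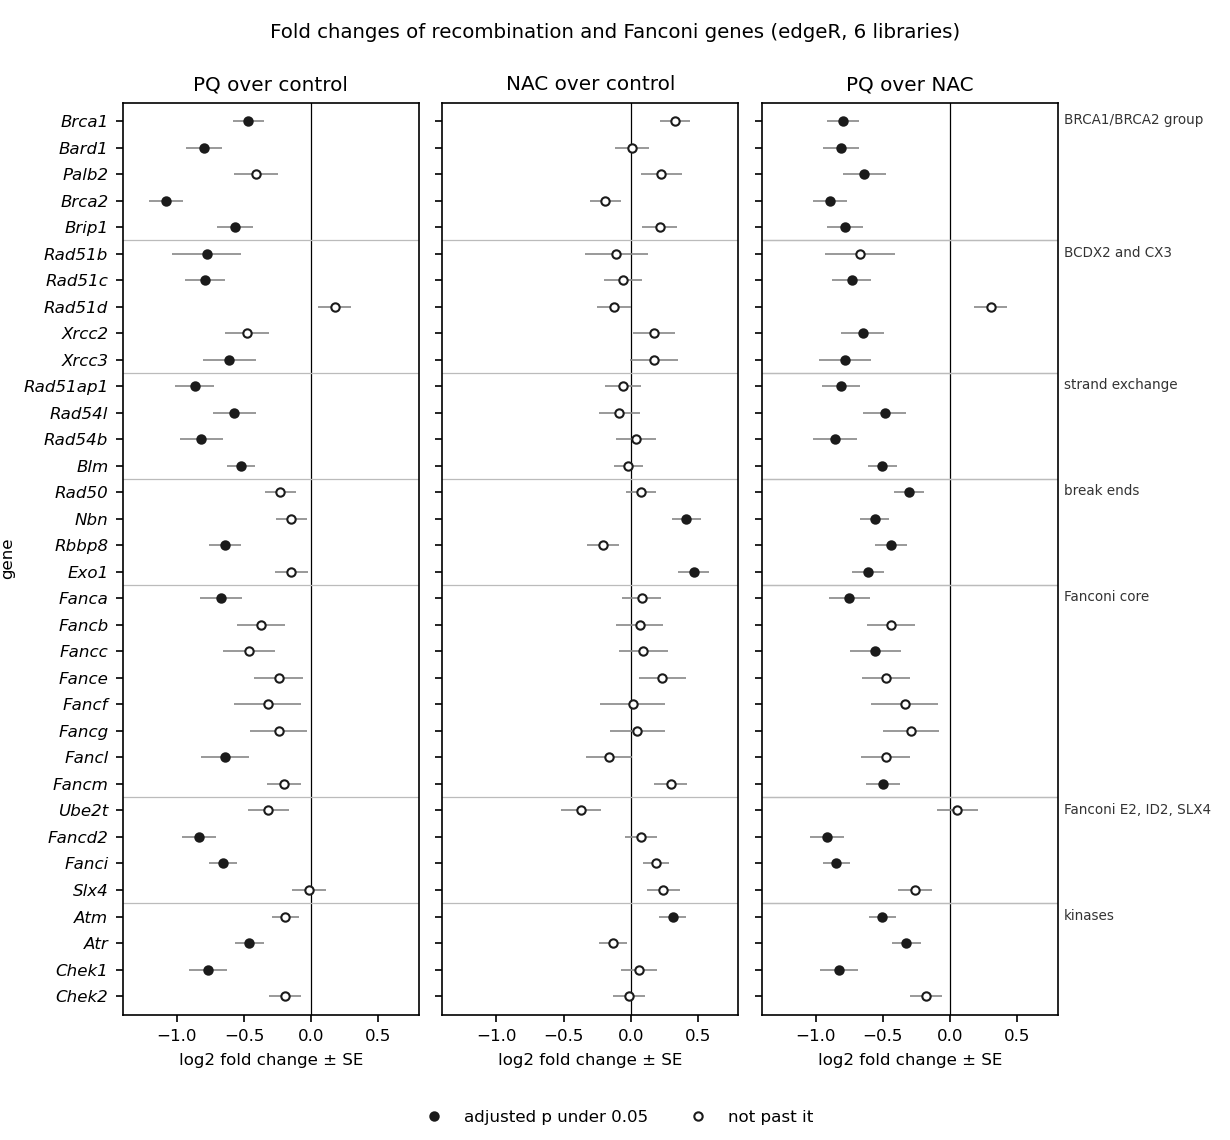
Log2 fold change ± SE of each member in PQ over control, NAC over control and PQ over NAC, with filled symbols for an edgeR adjusted p under 0.05. In the left and right panels 18 and 24 members are filled, all left of 0, and in the middle panel 3 are filled, right of 0.

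Of the 8 genes of the Fanconi core complex, the ubiquitin ligase of the pathway, 2 fell with PQ against control and 3 against NAC. Fanca, the gene most often mutated in people with Fanconi anaemia, had 11.2 and 11.8 CPM with PQ, 19.6 and 19.2 with NAC and 19.7 and 16.9 in control. PQ lay below the other 4 libraries, which overlapped, and Fanca was 1.59-fold lower in PQ than in control (log2 fold change -0.67 ± 0.16, edgeR adjusted p = 0.0057) and 1.68-fold lower than in NAC (0.0011). Fancl, the subunit with the ligase activity, fell by 0.64 ± 0.18 against control (edgeR adjusted p = 0.019), and did not pass without PQ replicate 1 (0.091) or PQ replicate 2 (0.12). Its NAC libraries, at 19.9 and 13.3 CPM, lay far apart. Fancc and Fancm, a core subunit and the translocase that brings the complex to DNA, fell by 0.56 ± 0.19 and 0.50 ± 0.13 in PQ against NAC. The call of Fancm was lost without PQ replicate 2 (edgeR adjusted p = 0.089), and that of Fancc whichever PQ or NAC library was left out (0.078 to 0.17). The core subunits Fancb, Fance, Fancf and Fancg passed in no comparison, with log2 fold changes from -0.37 to -0.24 in PQ against control. Fancg, whose promoter is printed above, had 6.87 and 8.84 CPM with PQ, 7.97 and 11.4 with NAC and 10.0 and 8.62 in control, with all 3 groups overlapping.

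Both parts of the complex that the core modifies fell with PQ. Fancd2 had 23.8 and 20.9 CPM with PQ, 44.9 and 39.4 with NAC and 39.7 and 40.1 in control, and Fanci had 48.4 and 46.5, 89.2 and 81.3, and 76.5 and 73.0 CPM in the PQ, NAC and control libraries. For both genes the PQ libraries were far below the rest, and for Fanci NAC lay above control. Fancd2 was 1.79-fold lower in PQ than in control (log2 fold change -0.84 ± 0.13, edgeR adjusted p = 0.00020) and 1.89-fold lower than in NAC (2.3e-05). Fanci was 1.58-fold lower in PQ than in control (-0.66 ± 0.10, edgeR adjusted p = 0.00027) and 1.80-fold lower than in NAC (5.8e-06). The other genes of this group did not pass. Ube2t, the ubiquitin enzyme that works with the core complex, had log2 fold changes of -0.32 ± 0.15 with PQ and -0.37 ± 0.15 with NAC against control. In PQ against NAC its log2 fold change was 0.05 ± 0.15. Slx4, the scaffold of nucleases that cut at a cross-link, had 31.1 and 32.2 CPM with PQ, 34.6 and 41.4 with NAC and 30.9 and 33.3 in control, a log2 fold change of -0.02 ± 0.13 in PQ against control (edgeR adjusted p = 0.94).

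Among the 4 kinases, ATR and its target CHK1 fell with PQ at the RNA level, and ATM and its target CHK2 did not pass against control. Chek1 had 25.1 and 19.3 CPM with PQ, 42.7 and 35.8 with NAC and 36.3 and 39.2 in control. PQ stood below all other libraries, and NAC and control overlapped. It was 1.70-fold lower in PQ than in control (log2 fold change -0.77 ± 0.14, edgeR adjusted p = 0.0011) and 1.78-fold lower than in NAC (0.00022). Atr had 41.9 and 39.4 CPM with PQ, 52.9 and 49.0 with NAC and 56.0 and 55.9 in control, a 1.38-fold fall against control (edgeR adjusted p = 0.0058; 0.092 without PQ replicate 2) and a 1.25-fold fall against NAC (0.027; lost without either PQ library or NAC replicate 1, 0.072 to 0.19). Atm had 86.4 and 86.4 CPM with PQ, 131.0 and 114.0 with NAC and 101.1 and 96.3 in control, so PQ was lowest and NAC highest. It rose 1.24-fold in NAC against control (log2 fold change 0.31 ± 0.10, edgeR adjusted p = 0.035), was 1.42-fold lower in PQ than in NAC (0.00080), and had a log2 fold change of -0.19 ± 0.10 in PQ against control (0.21). Its rise with NAC did not pass without NAC replicate 1 (0.32), control replicate 2 (0.12), PQ replicate 1 (0.057) or PQ replicate 2 (0.060), nor with DESeq2 (0.055), limma on FPKM (0.085 and 0.086) or a fit of the 2 groups alone (0.052). Chek2 had 30.1 and 32.5 CPM with PQ, 37.1 and 33.96 with NAC and 36.9 and 34.8 in control, with a log2 fold change of -0.20 ± 0.12 in PQ against control (edgeR adjusted p = 0.29).

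Per length, the order of the members in control ran over a span of FPKM from 26.2 for Rbbp8, 24.9 for Blm and 23.4 for Ube2t down to 2.91 for Fancf and 2.72 for Fancc. Members that fell with PQ stood at both ends of this order, Rbbp8 and Blm at the top and Xrcc3 (3.43 FPKM) and Rad51b (3.54 FPKM) near the bottom. Exonic bases shared with a gene on the other strand, whose reads cannot be told apart unless counting used the strand, made up 16.0% of Fanci (Polg), 15.4% of Rad54l (Lrrc41), 13.7% of Fancl (Vrk2) and 10.5% of Fanca (Zfp276). Fancf shares bases with Gas2 in the same way, and smaller shares were found for Fancd2 and Xrcc3. In PQ against NAC, where Fanci fell, Polg fell too, by 0.43 ± 0.11 (edgeR adjusted p = 0.0070), and Gas2 fell by 0.62 ± 0.18 (0.016). Polg, Lrrc41, Vrk2, Zfp276 and Gas2 passed in neither direction in PQ against control, with log2 fold changes from -0.48 (Vrk2) to 0.21 (Lrrc41).

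Of the 34 members, 12 start within 1000 bases of a protein-coding gene that runs the other way, and 11 of these neighbours were tested. Of the 6 neighbours of members that fell with PQ, 0 fell by edgeR in PQ against control, and 1 of the 11 neighbours rose, beside 8.80% and 9.07% of all tested genes, so these counts are near the background. The median log2 fold change of the neighbours was -0.01. In PQ against NAC, where 15.1% of all tested genes fell, Gas2 and Hscb fell among the 11 neighbours (edgeR adjusted p = 0.016 and 0.047). They are the neighbours of Fancf and Chek2. Brca1 starts 194 bases from Nbr1, a receptor of selective autophagy. Nbr1 had 232.9 and 246.4 CPM with PQ, 241.2 and 254.0 with NAC and 208.3 and 193.6 in control, so both PQ libraries were above control where those of Brca1 were below, with a log2 fold change of 0.25 ± 0.09 (edgeR adjusted p = 0.064). Fancd2 starts 30 bases from Emc3, a subunit of a membrane protein insertase, which had a log2 fold change of 0.22 ± 0.10 (adjusted p = 0.17) beside -0.84 for Fancd2. Zfyve26, 978 bases from Rad51b, was the neighbour that rose in PQ against control, by 0.52 ± 0.16 (adjusted p = 0.029). Its control libraries lay apart, at 22.6 and 15.8 CPM. In NAC against control, Zfyve26 rose by 0.50 ± 0.16 as well (edgeR adjusted p = 0.032), and Nbr1 rose by 0.30 ± 0.09 (0.029). The difference between a member and its neighbour was not tested.

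**Figure D3:**
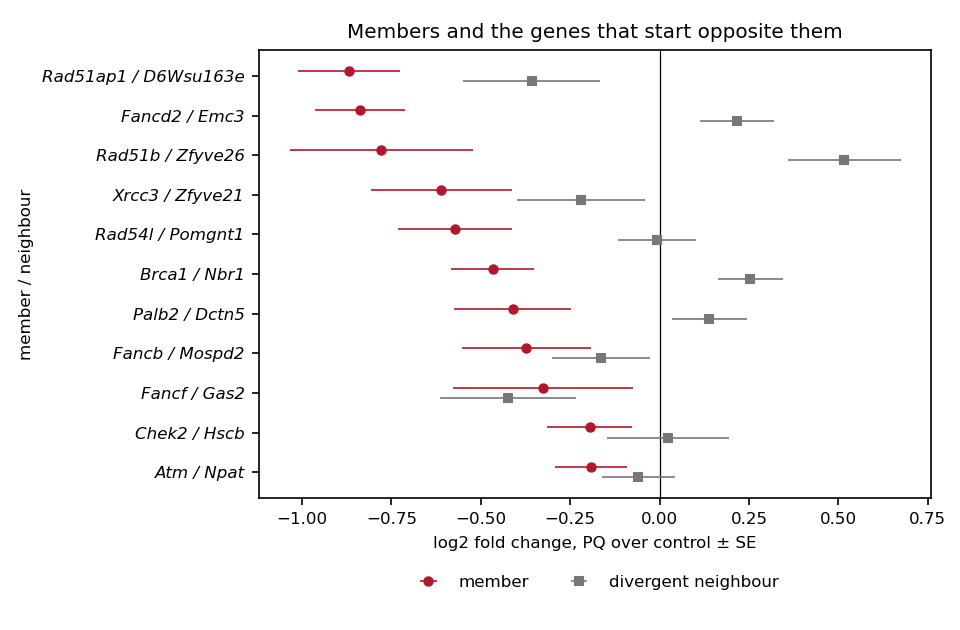
Log2 fold change ± SE in PQ over control of the 11 members with a tested divergent neighbour, and of that neighbour. The neighbours lie around 0, with a median of -0.01, while the members lie below 0.

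Of 33 further recombination and Fanconi genes, 8 (24.2%, beside 8.80% of tested genes) fell in PQ against control with a list median of -0.15. In PQ against NAC, 14 fell (42.4%, beside 15.1% of tested genes) and 1 rose (3.03%, beside 15.5%). Usp1, which removes ubiquitin from FANCD2, had 187.7 and 168.7 CPM with PQ, 274.9 and 234.1 with NAC and 252.0 and 292.9 in control, a fall of 0.61 ± 0.11 on the log2 scale against control (edgeR adjusted p = 0.00064). Mre11a, the nuclease that RAD50 and NBN hold, fell by 0.59, as did Fignl1, an ATPase of recombination, and Rad18, a ubiquitin ligase at stalled forks, fell by 0.55. Fignl1 also rose by 0.53 with NAC, as did Rev3l, the catalytic subunit of a lesion-bypass polymerase, by 0.93, while Swi5, a recombination mediator, fell by 0.32 and Mad2l2, a subunit of the same polymerase as Rev3l, by 0.49 with NAC.

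Partners of ATR and ATM signalling fell with PQ in 11 of 27 cases against control (40.7%, beside 8.80% of tested genes) and in 13 against NAC (48.1%, beside 15.1%), and 5 rose with NAC (18.5%, beside 8.65%). Timeless, a fork protection protein that helps ATR reach CHK1, had 28.0 and 25.4 CPM with PQ, 65.4 and 60.1 with NAC and 45.9 and 49.1 in control. The 3 groups were apart, in the order PQ, control, NAC, and Timeless fell by 0.83 ± 0.12 with PQ (edgeR adjusted p = 9.5e-05) and rose by 0.40 with NAC (0.014). Its partner Tipin fell by 0.62 with PQ, and Clspn and Topbp1, the adaptor and the activator of ATR, each fell by 0.58. The other genes that rose with NAC were H2ax, the histone variant marked at breaks (0.47), Rpa2, a subunit of the single-strand binding protein (0.62), Hus1, of the clamp that recruits TOPBP1 (0.48), and Rnf168, a ubiquitin ligase at breaks (0.28).

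Of 13 genes of end joining, which needs no sister copy, 2 fell with PQ, Prkdc by 0.56 (edgeR adjusted p = 0.0030) and Xrcc6 by 0.39 (0.012), with a list median of 0.01. In the other lists, all read against the same 8.80% and 9.07% of tested genes, 3 of 5 genes of polymerase theta end joining fell, 3 of 9 of mismatch repair, 4 of 13 of base excision repair and 1 of 14 of nucleotide excision repair. The DNA glycosylase Neil3 fell by 1.31 ± 0.14 (adjusted p = 9e-06), and the ligase of Okazaki fragments, Lig1, by 0.86 (1.2e-05). Ercc5, the nuclease that cuts on one side of a bulky lesion, rose by 0.47 (edgeR adjusted p = 0.0029).

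Cell cycle genes fell with PQ as well. Of 25 E2F and replication genes 21 fell with PQ against control (84.0%, beside 8.80% of tested genes), with a list median of -0.64. All 18 G2 and M phase genes fell too, with a median of -0.64. In NAC against control, 5 of the E2F and replication genes rose (20.0%, beside 8.65% of tested genes) and 1 fell. Of the G2 and M phase genes, 0 passed with NAC. Mki67, a marker of cycling cells, averaged 485 CPM with PQ, 1278 with NAC and 1068 in control, a log2 fold change of -1.14 ± 0.10 in PQ against control (edgeR adjusted p = 7.9e-07). Of 19 targets of p53, 13 rose (68.4%, beside 9.07% of tested genes) and 1 fell with PQ against control. In NAC against control, 8 of them fell (42.1%, beside 9.26% of tested genes) and 2 rose. Cdkn1a, the inhibitor of cyclin-dependent kinases, averaged 1058 CPM with PQ, 239 with NAC and 470.4 in control. The part of these changes in the values of the 34 members was not tested.

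**Figure D4:**
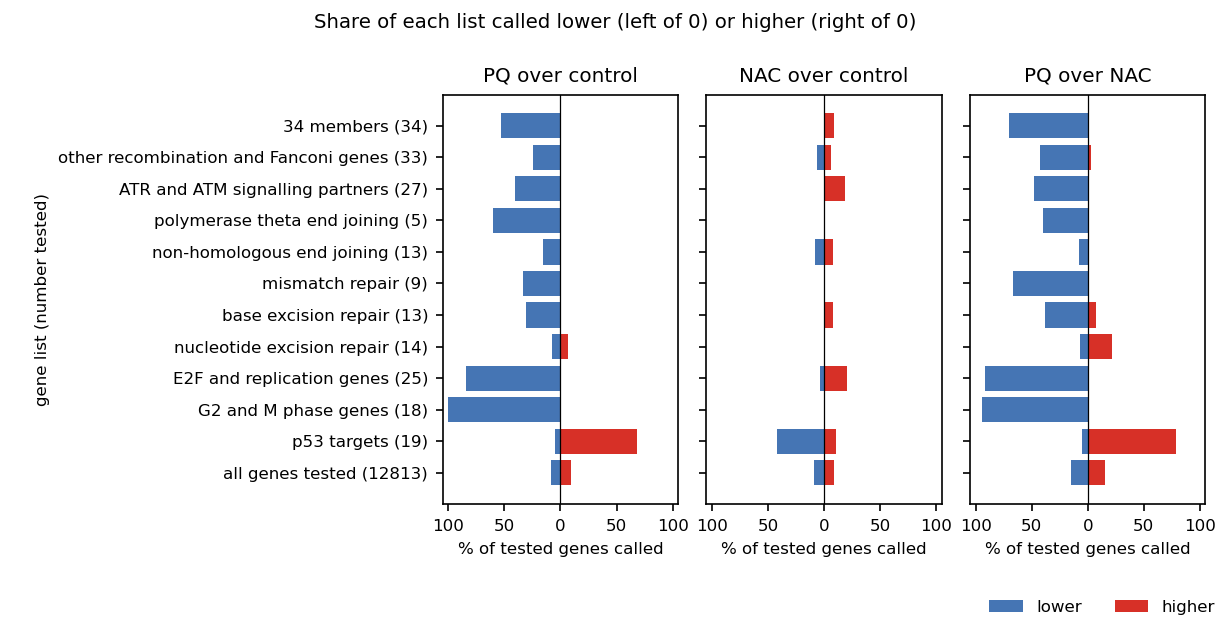
Share of the tested genes of each list that fell (left of 0) or rose (right of 0) in PQ over control, NAC over control and PQ over NAC, in percent. The 34 members reach 52.9% lower in PQ over control and 70.6% in PQ over NAC, and all 18 G2 and M phase genes are lower in PQ over control.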

How the data were processed

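Each group had 2 libraries. The deposited tables give an expected count, an FPKM value and a length per gene, per the file headers; 20.9% to 21.4% of the expected counts of a library are not whole. RSEM, Bowtie2 2.2.5, HISAT2 2.0.4 and mm10 are named in the submitters' processing notes, without their roles, and whether counting used the strand is not given in the sources used here. Both selection with oligo dT and rRNA depletion are listed, and the one applied is not stated, per the labels' protocols.

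The expected counts deposited were rounded to integers, with 0 for genes that a table did not list. The 55 identifiers without a name, 0.072% to 0.079% of counts, were kept, and any that passed the filter entered the fit. Genes were filtered by filterByExpr (minimum count 10, minimum total 15) and scaled by TMM (factors 0.978 to 1.02). One edgeR 4.0.16 quasi-likelihood fit (R 4.3.3) on the 6 libraries together (3 residual degrees of freedom) gave the 3 comparisons, with Benjamini-Hochberg adjustment over 12813 genes and a threshold of 0.05. SEs were derived as the size of the log2 fold change over the root of F. CPM uses TMM-scaled library sizes. The FPKM deposited by the authors gave levels per length, and limma 3.58.1 on log2(FPKM + 1) and log2(FPKM + 0.1) was an alternative, as were DESeq2 1.42.0, other scalings and filters, and leaving out each library. The fitting code was tested on simulated data. Figures were drawn with matplotlib 3.10.9.

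Counts of libraries in a group differed by more than sampling noise (chi-square per degree of freedom 3.97 to 6.62). Gene coordinates and names come from RefSeq (GRCm38.p6), shared exons and neighbours from GENCODE M21. The 34 members and all lists were chosen with earlier results of these data known. Values in every library are given for the members with the smallest p of their role group in PQ against control and the 6 with the largest called change in a comparison, and for some others chosen after their values were seen. Of other lists up to 4 genes with the smallest p in PQ against control were named, others among them after their values were seen.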

Additional observations from a re-analysis of the deposited data

How the results depend on the processing

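Over 16 alternatives no called member changed direction in the 3 comparisons. Outside the fits that leave out a library, 13 to 19 members were called in PQ against control (all lower), 2 to 4 in NAC against control (all higher) and 20 to 28 in PQ against NAC (all lower). Leaving out 1 library gave 10 to 17, 0 to 6 (0 to 5 higher, 0 to 1 lower) and 18 to 28 members, and 829 to 2181, 1338 to 2157 and 2427 to 4442 of all genes. The lowest counts over all genes came without PQ replicate 2 (829, and 2427 in PQ against NAC) and NAC replicate 1 (1338). The fit that leaves 1 library in a group assumes that it varies like the others, and the cause of these shifts was not tested. Of the members' calls, 10 of 18, 0 of 3 and 17 of 24 passed in all 16 alternatives. With DESeq2 the calls of Rad54l (adjusted p = 0.052), Rad51b (0.15) and Xrcc3 (0.17) in PQ against control were lost, and with limma on log2(FPKM + 1) those of Brca1 (0.064), Brip1 (0.068), Atr (0.056), Fancl (0.052) and Rad51b (0.067). With library size scaling Rad51b (0.054) and Xrcc3 (0.052) were lost. Near the threshold in PQ against NAC, Fance, Fancl and Rad51b passed in 6 to 8 alternatives each. Numbers in the titles (8 to 10 and 11 to 13) could mark runs, which the labels do not state. Deviations from the group mean correlated at -0.07, -0.11 and 0.11 between libraries that would share a run. With 2 libraries a group, these values cannot settle whether the numbers pair libraries, and the main fit took them as unpaired. With a replicate block by these numbers, 16, 2 and 24 members were called in the 3 comparisons. Rad51b (edgeR adjusted p = 0.061) and Xrcc3 (0.058) were then lost in PQ against control, and Atm (0.059) in NAC against control. In PQ against NAC, Rad50 (0.074) was lost and Fance (0.042) was gained. With 2 libraries a group, members with few reads (Fancf, 33 to 57 a library) could differ without passing.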
